A study of Mus musculus with 12 samples.

Results

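The mast cell and basophil genes described here are Fcer1a, Ms4a2, Cpa3, Mcpt8, Prss34, Gzmb, Tpsb2, Hdc, Il1rl1 and Gata2, 10 of the 24310 features measured in each library. They were taken by symbol because they are known to mark these lineages, and all 10 were found. RNA was sequenced from CMM cells, a GFP-marked mouse acute myeloid leukaemia known for carrying the Cbfb-MYH11 fusion of inv(16). All mice were C57BL/6 hosts given CMM cells intravenously. Treatment began at about 1% GFP+ cells in blood and consisted of 3 intravenous doses, 1 every other day. The doses were PBS, CpG-scrODN (a TLR9-stimulating CpG oligonucleotide with a scrambled sequence) or CpG-STAT3dODN (the same kind of molecule with a decoy sequence that STAT3 binds), with 4 libraries per group. Cells positive for c-Kit, the receptor for stem cell factor, were enriched from spleens taken 1 day after the last dose, and the series design also names sorting of GFP+ cells. Positive selection leaves the hosts' own c-Kit+ cells in the sample unless the GFP sort removed them, and the labels give no age or sex.

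In all 12 libraries the column header carries another group word than the sample label does. The header reads DEC for the label PBS, PBS for the label CpG-scrODN and SCR for the label CpG-STAT3dODN. Groups are named by their labels below, and which treatment a direction belongs to cannot be told. No source says that every library came from its own mouse. The spread behind each p-value is that of these libraries alone, and it may be technical.

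Mast cells and basophils are granulocytes that bind IgE through the high-affinity receptor FceRI and release histamine, proteases and cytokines when it is cross-linked. Mast cells mature in tissues, depend on KIT and fill their granules with tryptases, chymases and carboxypeptidase A3. Basophils mature in bone marrow, circulate in blood and spleen, respond to IL-3 and carry their own proteases Mcpt8 and Prss34. Both descend from c-Kit+ progenitors that express GATA2, and those progenitors already transcribe FceRI chains, Cpa3 and Hdc before the granule proteases of either mature cell appear.

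GATA factors are well known regulators of this lineage, so the promoters of the 3 abundant members of the receptor and granule and of the 2 low basophil proteases are shown first. The sequences are the 250 bases before the annotated start, 5′ to 3′, from RefSeq on GRCm38.p6. Capitals mark AGATAA or TGATAA on either strand, so TTATCT is a match on the strand opposite to the gene, and the Mcpt8 sequence holds none.

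Fcer1a, chr1:173227230-173227479, minus strand: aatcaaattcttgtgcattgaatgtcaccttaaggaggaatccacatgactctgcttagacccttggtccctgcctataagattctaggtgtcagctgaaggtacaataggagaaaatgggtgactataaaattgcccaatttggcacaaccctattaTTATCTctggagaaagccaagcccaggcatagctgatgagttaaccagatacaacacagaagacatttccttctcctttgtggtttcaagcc
Ms4a2, chr19:11623720-11623969, minus strand: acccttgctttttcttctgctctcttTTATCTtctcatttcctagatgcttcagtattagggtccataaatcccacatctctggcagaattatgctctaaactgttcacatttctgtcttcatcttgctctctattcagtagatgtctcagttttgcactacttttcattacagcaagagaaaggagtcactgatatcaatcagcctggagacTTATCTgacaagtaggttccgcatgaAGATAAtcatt
Cpa3, chr3:20242182-20242431, minus strand: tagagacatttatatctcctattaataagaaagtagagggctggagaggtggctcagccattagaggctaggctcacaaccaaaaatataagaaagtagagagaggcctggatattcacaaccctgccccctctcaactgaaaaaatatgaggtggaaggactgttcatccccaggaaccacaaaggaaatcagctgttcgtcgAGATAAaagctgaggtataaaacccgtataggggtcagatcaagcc
Prss34, chr17:25298144-25298393, plus strand: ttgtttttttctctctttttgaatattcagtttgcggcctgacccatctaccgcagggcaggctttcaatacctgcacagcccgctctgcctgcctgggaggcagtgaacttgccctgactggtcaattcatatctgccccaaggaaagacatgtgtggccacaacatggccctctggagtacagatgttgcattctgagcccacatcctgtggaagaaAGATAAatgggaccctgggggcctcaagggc
Mcpt8, chr14:56085198-56085447, minus strand: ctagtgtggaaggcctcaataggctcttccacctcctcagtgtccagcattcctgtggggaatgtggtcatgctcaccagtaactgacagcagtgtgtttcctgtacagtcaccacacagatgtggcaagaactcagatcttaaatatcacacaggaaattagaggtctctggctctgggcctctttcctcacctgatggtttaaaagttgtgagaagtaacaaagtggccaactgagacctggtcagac

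RefSeq gave windows for 9 of the 10 members, 11 windows in all, each from 250 bases before to 50 bases after a start. A GATA match (AGATAA or TGATAA, both strands) lay in 6 of the 11 windows and in 5 of the 9 members, against 18.6% of all 32817 windows of that length. Ms4a2 held 3, at -224 to -219, -37 to -32 and -11 to -6, counted from the start. Cpa3 held 1 at -46 to -41, Prss34 1 at -31 to -26 and Fcer1a 1 at -92 to -87. Il1rl1, which has annotated starts for more than 1 transcript, held 2 in its first window and 1 in its second. The windows of Gata2, Hdc, Gzmb and Mcpt8 held none of these letters. Of the other motifs searched on both strands, the E-box form CACATG lay in Fcer1a (-208 to -203) and Prss34 (-100 to -95), and 14.2% of all windows held it. The form CACGTG was in no member's window and in 7.15% of all windows. The STAT form, TTC and GAA separated by any 3 bases, lay only in the Gzmb window, at 38 to 46 after the start, and 8.29% of all windows held it. No match overlapped another. Matches of letters describe these windows and do not show that a factor binds there.

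**Figure D1:**
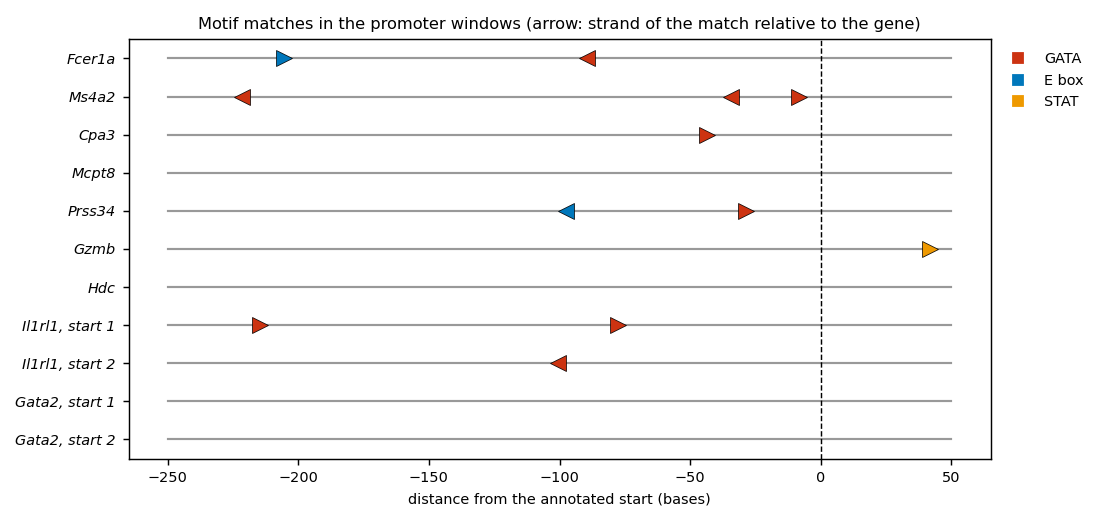
Motif matches in the 11 promoter windows of 9 genes. The horizontal axis is the distance from the annotated start in bases, each grey line is a window of 300 bases, and arrows give the strand of the match relative to the gene. Red GATA matches appear in the windows of Fcer1a, Ms4a2, Cpa3, Prss34 and Il1rl1.

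Values are RPKM, reads scaled by transcript length and by the library's mapped reads, so levels of different genes can be compared per length. Estimated depth was 31410000 to 36170000 reads, at which an RPKM of 1 stands for at least 31.4 reads per kilobase. The correlation of log2(RPKM + 1) between libraries of a group ran from 0.929 to 0.988 in the PBS-labelled group, 0.984 to 0.997 in the CpG-scrODN-labelled group and 0.928 to 0.993 in the CpG-STAT3dODN-labelled group. Replicate 4 of PBS and replicate 4 of CpG-STAT3dODN stood apart. In them the immediate-early gene Fos was at 12.9 and 5.91 RPKM, against 486 to 1156 in the other 10 libraries. Of the 10886 genes tested, 23.4% were higher in both than in every one of the other 10 libraries, and 18.8% were lower. Several results are therefore given with and without this pair, and the rest are given only with it. Kit, the gene of the surface protein used for enrichment, was at 10.5, 12.8, 37.8 and 22.9 RPKM in the PBS-labelled replicates 1 to 4, 31.3, 28.7, 28.3 and 40.5 in the CpG-scrODN-labelled ones and 27.6, 51.1, 25.7 and 37.4 in the CpG-STAT3dODN-labelled ones.

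The 10 genes fell into 3 ranges of level. Cpa3 (mean of 12 libraries, 949.6 RPKM) and Fcer1a (808) were among the most abundant transcripts, with ranks as high as 4 and 23 of 24310 features in a library. Ms4a2 (252), Hdc (180) and Il1rl1 (162) followed, then Gata2 (30.9). Prss34 (3.04), Mcpt8 (2.32) and Gzmb (2.18) were low, and Tpsb2 was at or near 0. Cpa3 was the highest member in 8 libraries and Fcer1a in 4, namely PBS-labelled replicates 1, 2 and 4 and CpG-STAT3dODN-labelled replicate 4. In each group the range of Fcer1a lay above that of Ms4a2, and those of Hdc and Il1rl1 lay above that of Gata2. Ranges of Cpa3 and Fcer1a overlapped in every group, as did those of Hdc and Il1rl1, and those of Prss34, Mcpt8 and Gzmb within the PBS-labelled group.

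Cpa3, Fcer1a, Ms4a2, Hdc and Il1rl1 were thus high, and Mcpt8, Prss34, Gzmb and Tpsb2 were low or at 0. The maturity of the cells behind these levels was not tested. Outside the set, the granule transporter Slc18a2 was at 39.2 to 172 RPKM and the cytokine Il4 at 7.56 to 18.3. Of 19 other mast cell granule and surface genes, 11 failed the filter of 1 RPKM in 4 libraries. Among the connective tissue mast cell genes, Mcpt4 was at 0.374 RPKM or less, the tryptase Tpsab1 at 0.792 or less and the surface receptor Mrgprb2 at 0.014 or less in all 12 libraries. The chymase Cma1 reached 3.68 RPKM, and the mucosal chymases Mcpt1 and Mcpt2 reached 8.74 and 6.58 in PBS-labelled replicate 4. The label of the set is therefore used only for the genes, not for the cells in the libraries. Il4, Mcpt4, Tpsab1, Mrgprb2 and Cma1 were chosen after their values were seen. The amount of each RNA in such bulk samples depends on both cell number and content, so fewer cells of a type and less RNA per cell cannot be told apart.

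**Figure D2:**
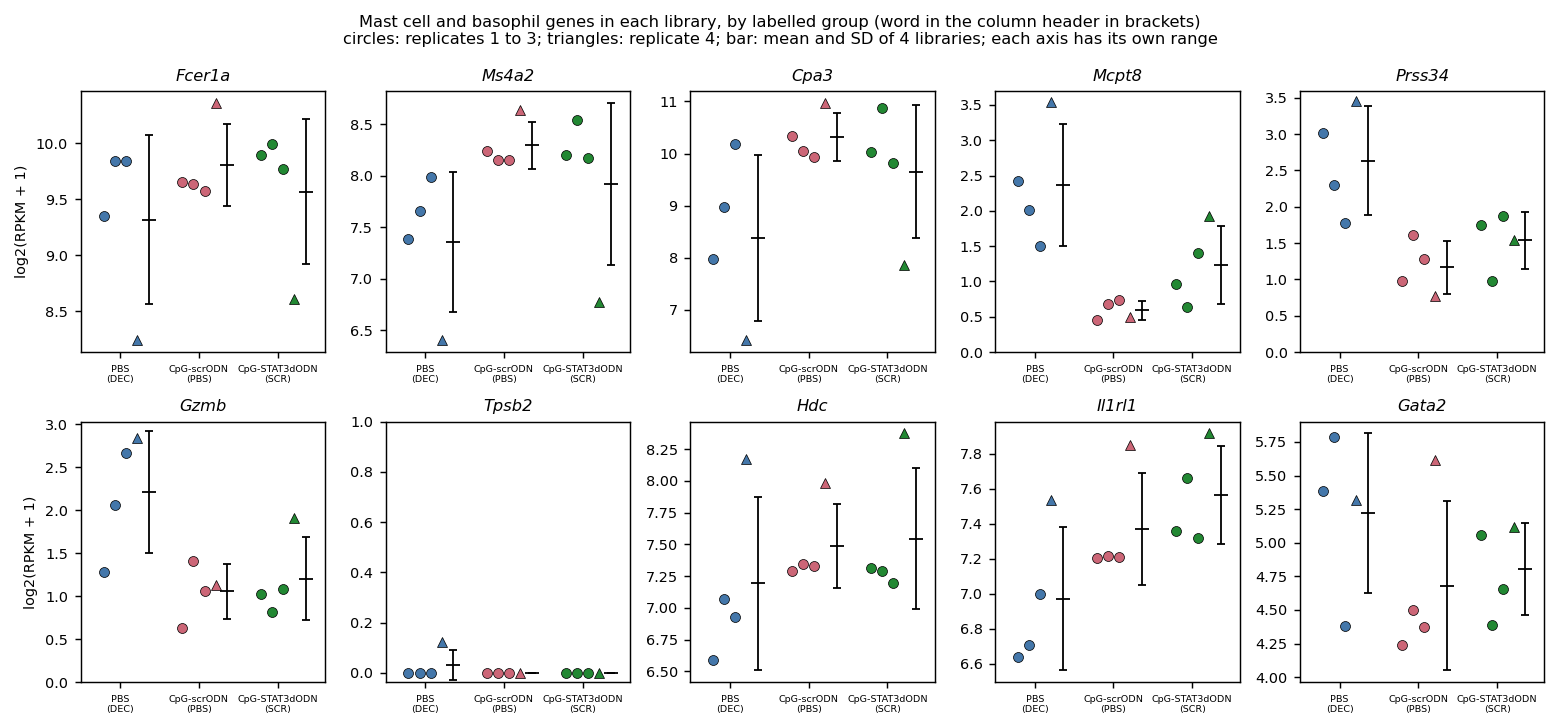
log2(RPKM + 1) of the 10 genes in each library (vertical axes, each with its own range) by labelled group, with the column header's word in brackets. Circles are replicates 1 to 3, triangles replicate 4, and bars the mean and SD of 4 libraries. Mcpt8 and Prss34 lie lower in all 4 CpG-scrODN-labelled libraries than in any PBS-labelled one, and Tpsb2 is above 0 in 1 library.

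Fcer1a encodes the IgE-binding alpha chain of FceRI (chr1:173221269-173227232). It stood at 650.1, 918, 917 and 301 RPKM in PBS-labelled replicates 1 to 4, at 803, 795, 763 and 1312 in the CpG-scrODN-labelled ones and at 954, 1019, 874 and 389 in the CpG-STAT3dODN-labelled ones. The groups overlapped, and each replicate 4 lay outside the other 3 of its group, below them under the PBS and CpG-STAT3dODN labels and above them under the CpG-scrODN label. The log2(RPKM + 1) difference was 0.49 for CpG-scrODN minus PBS (SE 0.38, limma adjusted p = 0.573), 0.25 for CpG-STAT3dODN minus PBS and -0.24 for CpG-STAT3dODN minus CpG-scrODN. None passed an adjusted p of 0.05. The first of these differences was 0.13 without the pair of libraries that stood apart and -0.06 without all 3 libraries numbered 4.

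Ms4a2 encodes the beta chain, which amplifies the receptor's signal (chr19:11615517-11623790). It stood at 166, 200.5, 252 and 83.6 RPKM in the PBS-labelled libraries, 302, 284, 284 and 396 in the CpG-scrODN-labelled ones and 293, 371, 287 and 108 in the CpG-STAT3dODN-labelled ones. Every CpG-scrODN-labelled library was above every PBS-labelled one, an arrangement shared by 3.83% of all genes tested in that direction. The mean was 316 ± 53.8 against 176 ± 70.9 RPKM (SD, n = 4 each). The difference of 0.94 on the log2 scale (95% interval 0.1 to 1.78) did not pass limma's adjustment over all genes (adjusted p = 0.26), and without the pair that stood apart it was 0.62 (limma adjusted p = 0.0611). The common gamma chain Fcer1g, which FceRI shares with other Fc receptors, was at 47.9 to 85.1 RPKM in all 12 libraries and its groups overlapped. The ratio of Fcer1a to Ms4a2 varied from 2.66 to 4.58 between libraries, while that of Cpa3 to Fcer1a varied from 0.281 to 1.85.

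Cpa3 encodes carboxypeptidase A3, a granule exopeptidase of mast cells that basophils and early progenitors also transcribe (chr3:20215616-20242209). It varied more than any other abundant member. PBS-labelled replicates 1 to 4 stood at 251, 502, 1162 and 84.7 RPKM, the CpG-scrODN-labelled ones at 1288, 1059, 979.6 and 1997, and the CpG-STAT3dODN-labelled ones at 1050.5, 1888, 903 and 232. PBS-labelled replicate 3 reached the level of the other groups, and replicate 4 under the PBS and CpG-STAT3dODN labels was the lowest of its group. The difference was 1.93 for CpG-scrODN minus PBS (SE 0.75, 95% interval 0.29 to 3.58, limma adjusted p = 0.231) and 1.28 without the pair that stood apart (limma adjusted p = 0.175). It was 1.26 for CpG-STAT3dODN minus PBS and -0.67 for CpG-STAT3dODN minus CpG-scrODN, with limma adjusted p of 0.765 and 0.96. The gene's span overlaps Gm31320, Mir7007 and Gm7428 in the annotation. Whether the counting used strand is not given in the sources used here, so reads of overlapping genes cannot be told apart.

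Mcpt8, a basophil granule serine protease (chr14:56082163-56085499), was lower in the CpG-scrODN-labelled than in the PBS-labelled libraries. It stood at 4.37, 3.01, 1.83 and 10.6 RPKM in the PBS-labelled libraries, 0.373, 0.604, 0.663 and 0.413 in the CpG-scrODN-labelled ones and 0.957, 0.558, 1.64 and 2.80 in the CpG-STAT3dODN-labelled ones. The CpG-scrODN-labelled libraries were all below 1 RPKM and below every PBS-labelled one, and the CpG-STAT3dODN-labelled range lay between and overlapped both. The mean fell from 4.96 ± 3.91 to 0.513 ± 0.142 RPKM (SD, n = 4 each). On the log2(RPKM + 1) scale, which understates the change of low genes, Mcpt8 fell by 1.77 (SE 0.38, 95% interval -2.6 to -0.94, limma adjusted p = 0.0202). With a pseudocount of 0.1 the same comparison gave -2.78. The call held without the pair that stood apart, at -1.38 (limma adjusted p = 0.00469). It was lost without PBS-labelled replicate 1 (limma adjusted p = 0.0596) and without any 1 of CpG-scrODN-labelled replicates 1 to 4 (0.062, 0.0536, 0.0546 and 0.0602). Against PBS, the CpG-STAT3dODN-labelled difference was -1.13 (limma adjusted p = 0.249). Mcpt8 passed the filter on low values through the PBS-labelled libraries, all 4 of which held at least 1 RPKM, with 2 of the CpG-STAT3dODN-labelled ones and 0 of the CpG-scrODN-labelled ones. Its span overlaps Mir6949.

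Prss34, a basophil tryptase-like protease also known as mMCP-11 (chr17:25298394-25300168), followed the same order. It stood at 7.10, 3.93, 2.43 and 9.97 RPKM in the PBS-labelled libraries, 0.977, 2.06, 1.44 and 0.711 in the CpG-scrODN-labelled ones and 2.37, 0.972, 2.66 and 1.90 in the CpG-STAT3dODN-labelled ones. The PBS-labelled and CpG-scrODN-labelled ranges did not overlap. Prss34 fell by 1.47 on the log2 scale in that comparison (SE 0.34, 95% interval -2.21 to -0.74, limma adjusted p = 0.0286), from 5.85 ± 3.36 to 1.30 ± 0.591 RPKM (SD, n = 4 each). The call was lost without the pair that stood apart (-1.2, limma adjusted p = 0.06). Leaving out PBS-labelled replicate 1 or 4, or CpG-scrODN-labelled replicate 1, 3 or 4, also ended it, with limma adjusted p of 0.0927, 0.0686, 0.0861, 0.0728 and 0.0946. It also did not pass with no filter (0.0538), with quantile normalization (0.0554) or with only the 2 groups in the fit (0.0609). The CpG-STAT3dODN minus PBS difference was -1.1 (limma adjusted p = 0.183).

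Gzmb encodes granzyme B, a protease of cytotoxic lymphocytes that mast cells and basophils can also make (chr14:56258836-56262334, 173.3 kb from Mcpt8 in the same protease cluster). It stood at 1.43, 3.18, 5.35 and 6.12 RPKM in the PBS-labelled libraries, 0.552, 1.65, 1.08 and 1.18 in the CpG-scrODN-labelled ones and 1.03, 0.757, 1.11 and 2.75 in the CpG-STAT3dODN-labelled ones. PBS-labelled replicate 1 lay within the ranges of both other groups. The difference was -1.15 for CpG-scrODN minus PBS (SE 0.33, limma adjusted p = 0.0908) and -1.01 for CpG-STAT3dODN minus PBS (limma adjusted p = 0.243). Without PBS-labelled replicate 1 the first was -1.47 and passed (limma adjusted p = 0.0192). Tpsb2, the mast cell tryptase mMCP-6 (chr17:25366308-25368096, 66.1 kb from Prss34), was listed at 0 in 11 libraries and at 0.0872 RPKM in PBS-labelled replicate 4. It failed the filter and was not tested.

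Hdc encodes histidine decarboxylase, the enzyme that makes histamine (chr2:126593659-126624025). It stood at 95.5, 134, 121 and 287 RPKM in the PBS-labelled libraries, 155, 162, 160.1 and 252 in the CpG-scrODN-labelled ones and 158, 155, 145 and 330.4 in the CpG-STAT3dODN-labelled ones. Replicate 4 was the highest in all 3 groups, and apart from it the PBS-labelled libraries were below all others. The difference was 0.29 for CpG-scrODN minus PBS (limma adjusted p = 0.701) and 0.62 without the pair that stood apart (limma adjusted p = 0.0708), and it was 0.35 for CpG-STAT3dODN minus PBS.

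Il1rl1 encodes ST2, the receptor chain for the alarmin IL-33 (chr1:40404864-40465418). It stood at 98.5, 104, 127 and 184 RPKM in the PBS-labelled libraries, 147, 148, 147 and 229 in the CpG-scrODN-labelled ones and 163, 201, 159 and 240.3 in the CpG-STAT3dODN-labelled ones. Again each replicate 4 was the highest of its group. Its largest difference was CpG-STAT3dODN minus PBS, 0.59 (SE 0.22, 95% interval 0.12 to 1.07, limma adjusted p = 0.323). Without all 3 libraries numbered 4 that difference was 0.66 and passed (limma adjusted p = 0.019). With only the pair that stood apart left out it was 0.66 as well, with a limma adjusted p of 0.112. Its partner chain Il1rap was at 2.65 to 3.48 RPKM throughout, and its groups overlapped.

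Gata2 encodes the zinc finger factor that mast cell and basophil progenitors and stem cells require (chr6:88193891-88207032, overlapping Gm38708). It stood at 40.8, 54.3, 19.9 and 38.9 RPKM in the PBS-labelled libraries, 17.8, 21.6, 19.8 and 48.0 in the CpG-scrODN-labelled ones and 32.2, 20.0, 24.2 and 33.8 in the CpG-STAT3dODN-labelled ones. The groups overlapped, with differences against PBS of -0.54 and -0.41 and limma adjusted p of 0.478 and 0.936. Gata1, its relative in erythroid, megakaryocytic and mast cell development, was higher in every library, at 93.6 to 133 RPKM.

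Across the comparison of CpG-scrODN-labelled (headed PBS) with PBS-labelled (headed DEC) libraries, 2 of the 9 members tested were called by limma, both lower, where 4.15% of all 10886 genes were called, 0.11% higher and 4.04% lower. Of the 9, 5 had an unadjusted p under 0.05, against 15.6% of all genes. Ranges did not overlap for 3 members, 1 higher and 2 lower, against 13.9% of all genes, 3.83% higher and 10% lower. The median difference of the 9 was 0.29, and 0.13 without the pair that stood apart, while that of all genes was -0.05. Those 9 are the members that passed the filter, not all 10. Mcpt8, 1 of the 2 called, held at least 1 RPKM in 4 PBS-labelled, 0 CpG-scrODN-labelled and 2 CpG-STAT3dODN-labelled libraries. Its place among the 9 thus rested on the group where it was high. For CpG-STAT3dODN-labelled (headed SCR) against PBS-labelled libraries limma called 0 of 9, and 4 had an unadjusted p under 0.05, where 1.86% of all genes were called and 9.4% had such a p. Ranges were separate for 0 members, against 5.04% of all genes (0.818% higher, 4.23% lower), and 0.0276% of all genes were called higher. Both comparisons share the PBS-labelled libraries.

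CpG-STAT3dODN-labelled against CpG-scrODN-labelled libraries gave 0 members called by limma and 0 with an unadjusted p under 0.05. Of all genes 0% were called and 2.71% had such a p. Ranges were separate for 0 members, against 4.25% of all genes (3.38% higher, 0.873% lower). The widest interval was that of Cpa3, -2.32 to 0.98 on the log2 scale, and that of Mcpt8 ran from -0.19 to 1.47, so differences within these bounds could not be told from 0.

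**Figure D3:**
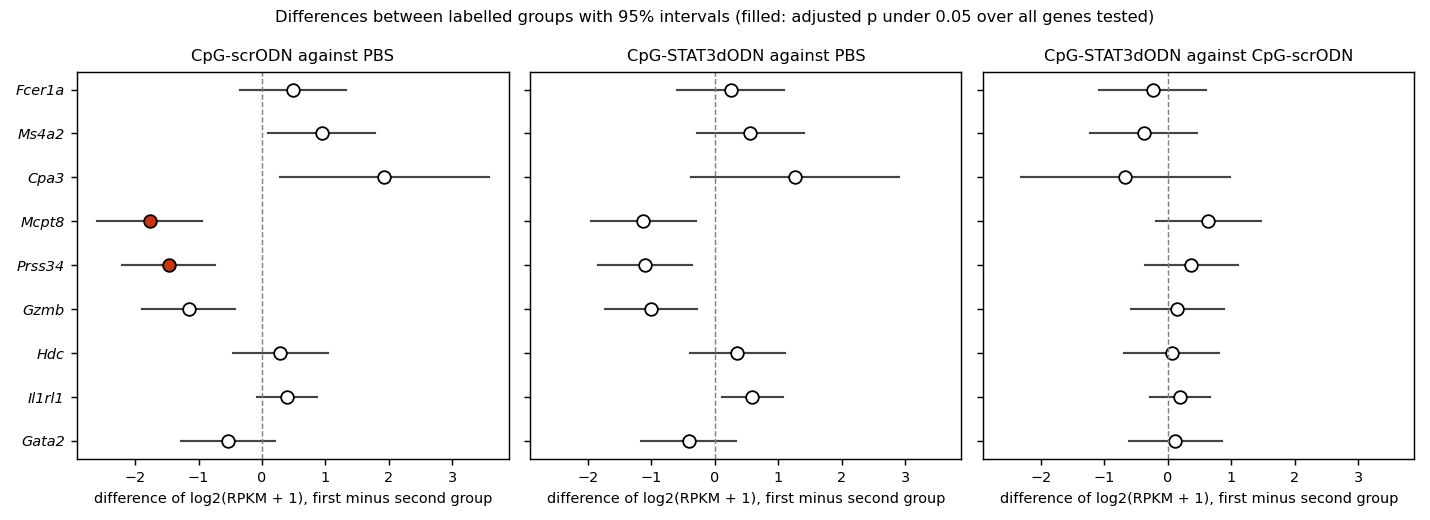
Differences of log2(RPKM + 1) between labelled groups for the 9 genes tested (horizontal axis, first minus second group), with 95% intervals from limma. Filled points passed an adjusted p of 0.05, and only Mcpt8 (-1.77) and Prss34 (-1.47) for CpG-scrODN against PBS are filled.

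Of the 9 members tested, 3 (Cpa3, Fcer1a and Ms4a2) were lower in replicate 4 of both PBS and CpG-STAT3dODN than in every one of the other 10 libraries, against 18.8% of all genes. Hdc was the 1 member higher in both, against 23.4% of all genes. In the same pair, Mcpt8 and Gzmb were the highest of their groups. In CpG-scrODN-labelled replicate 4, Cpa3, Fcer1a, Ms4a2, Gata2, Hdc and Il1rl1 were all the highest of their group. Over all 12 libraries, Pearson's r of log2(RPKM + 1) between Cpa3 and Hdc was -0.31, and over the 10 libraries other than the pair it was 0.79. For Ms4a2 and Il1rl1 it went from 0 to 0.97. The r of Cpa3 with Ms4a2 was 0.98 over 12 and 0.96 over 10 libraries, and that of Mcpt8 with Prss34 was 0.93 and 0.95. Cpa3 and Mcpt8 ran opposite in both, at -0.94 and -0.89. These correlations are descriptions over libraries that share groups and depth.

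**Figure D4:**
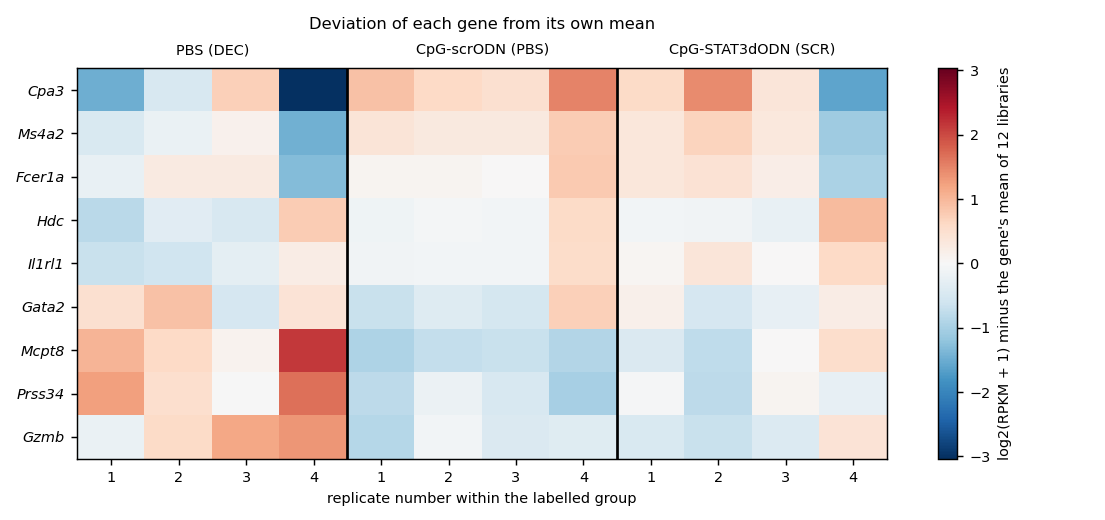
Deviation of each gene's log2(RPKM + 1) from its own mean of 12 libraries (colour, red above and blue below), with libraries in columns by labelled group and replicate number and the header's word in brackets. In replicate 4 of PBS and of CpG-STAT3dODN, Cpa3, Ms4a2 and Fcer1a are blue while Hdc and Il1rl1 are red.

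Some genes outside the set that are known from mast cells or basophils also stood apart in that pair. Of all genes tested, 23.4% were above the other 10 libraries in both and 18.8% below. The genes named here were chosen after their values were seen. Mcpt1 and Mcpt2, chymases of mucosal mast cells, were at 8.74 and 6.58 RPKM in PBS-labelled replicate 4 and at 5.51 and 2.91 in CpG-STAT3dODN-labelled replicate 4. In the other 10 libraries Mcpt1 was at 0.533 or less and Mcpt2 at 0.208 or less. The cytokine gene Il13 was at 26.8 and 27.4 RPKM in the pair and at 0.489 to 0.853 elsewhere. Csf2rb, the signalling chain shared by the IL-3, GM-CSF and IL-5 receptors, was at 665 and 817 RPKM in the pair, 151 in CpG-scrODN-labelled replicate 4 and 80.7 to 104 in the other 9. The leukotriene enzyme Alox5 was lowest there, at 45.9 and 65.1 RPKM, against 145 to 294 in the other 10. The summed B-cell genes were also the highest of their groups in the pair, at 798 and 124 RPKM, as was the list's mean log2 level (4.74 and 2.38). Cd79a and Cd79b made up much of these sums, at 187 and 260 RPKM in PBS-labelled replicate 4 and 30.4 and 45.6 in CpG-STAT3dODN-labelled replicate 4. Not every gene of the list rose there. Cd22 was the lowest of its group in CpG-STAT3dODN-labelled replicate 4, at 1.46 RPKM against 2.39 to 4.15, and Ms4a1 lay inside its group's range. The part of B cells in the members' values there was not tested.

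**Figure D5:**
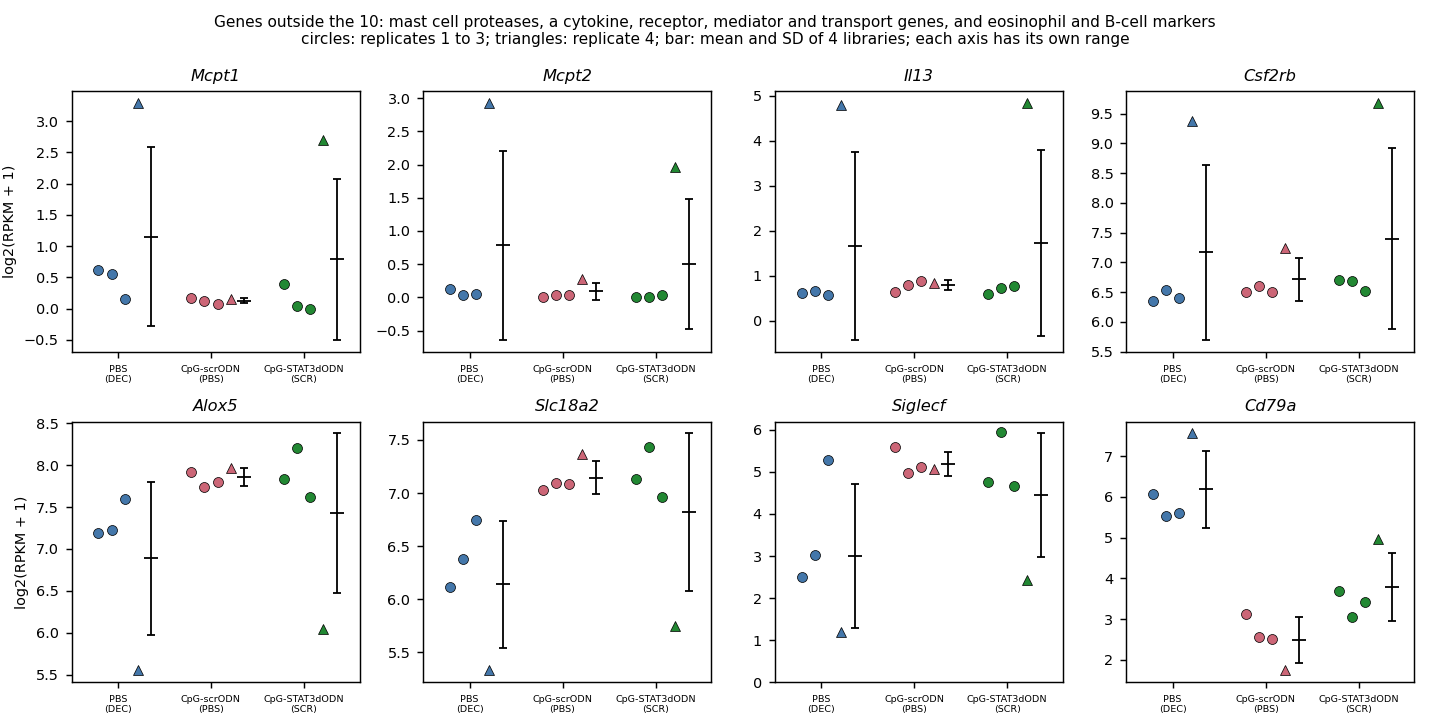
log2(RPKM + 1) of 8 genes outside the set (vertical axes, each with its own range) by labelled group. Circles are replicates 1 to 3, triangles replicate 4, and bars the mean and SD of 4 libraries. Mcpt1, Mcpt2, Il13 and Csf2rb are highest and Alox5, Slc18a2 and Siglecf lowest within the PBS-labelled and CpG-STAT3dODN-labelled groups in replicate 4, and Cd79a is highest there.

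The genes most like each member over the 12 libraries, by Pearson's r of log2(RPKM + 1) among the 10886 tested, were the following. Ms4a2 was most like Slc18a2 (r = 0.99), Taok3 (0.988) and Slc41a3 (0.988). Cpa3 was most like Rgs18 (0.993), Smim5 (0.993) and Cd59a (0.989), and Fcer1a like Fam189b (0.977), Asph and Pygl. Without the pair that stood apart, the r of Fcer1a with Fam189b was 0.892, and that of Ms4a2 with Slc18a2 was 0.979. Hdc was most like Dusp3 (0.964), Il1rl1 like Smad5 (0.961) and Gata2 like Zdhhc9 (0.946). Mcpt8 was most like Arntl (0.981), Prss34 like Phtf2 (0.988) and Gzmb like Padi2 (0.903).

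Over all genes tested, 4.15% were called in CpG-scrODN against PBS and 1.86% in CpG-STAT3dODN against PBS. An unadjusted p under 0.05 was held by 15.6% and 9.4%. These shares belong beside each list count below. Other mast cell granule and surface genes were called for 1 of 8 tested and 0 of 8 in these 2 comparisons. There 4 (3 higher, 1 lower) and 3 (2 higher, 1 lower) had an unadjusted p under 0.05. The 1 called was Ctsg, cathepsin G, which fell by 2.09 (SE 0.33, limma adjusted p = 0.00326), from 38.0 to 63.5 RPKM in the PBS-labelled libraries to 6.99 to 16.3 in the CpG-scrODN-labelled ones. Ctsg is also a primary granule protease of neutrophil precursors. The other 7 differences in that comparison were positive, among them that of Slc18a2, the transporter that loads histamine and serotonin into granules, at 1.00 (limma adjusted p = 0.171, 39.2 to 172 RPKM), and the list's median was 0.34 against -0.05 for all genes. Serglycin, Srgn, the granule proteoglycan core protein, was the most abundant of the list, at 613 to 1055 RPKM in all libraries, and did not pass.

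Among other basophil genes, 1 of 12 was called for CpG-scrODN against PBS and 0 of 12 for CpG-STAT3dODN against PBS. An unadjusted p under 0.05 was held by 6 (3 higher, 3 lower) and 4 (3 higher, 1 lower). The gene called was Ifitm1, an interferon-inducible transmembrane gene, which fell by 1.28 (SE 0.25, limma adjusted p = 0.0126). Cd200r3, an activating receptor of mast cells and basophils, stood at 11.3, 13.3, 18.4 and 20.8 RPKM in the PBS-labelled libraries, 24.1, 20.4, 20.8 and 33.2 in the CpG-scrODN-labelled ones and 21.6, 32.5, 17.7 and 33.5 in the CpG-STAT3dODN-labelled ones. The cytokine Il4 was detected in every library at 7.56 to 18.3 RPKM. The water and glycerol channel Aqp9 was the most abundant of the list, at 39.9 to 83.2 RPKM. None of these 3 passed in any comparison. Cd200r3 and Il4 were chosen after their values were seen.

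The signalling genes downstream of FceRI included 2 called lower of 17 for CpG-scrODN against PBS and 1 for CpG-STAT3dODN against PBS. Syk, the kinase recruited to the receptor's phosphorylated chains, fell by 1.34 and 1.16 (limma adjusted p = 0.00367 and 0.0161). It stood at 38.7, 24.3, 34.5 and 63.1 RPKM in the PBS-labelled libraries, 12.5 to 16.3 in the CpG-scrODN-labelled ones and 14.7 to 17.9 in the CpG-STAT3dODN-labelled ones. Plcg2, a phospholipase, fell by 0.62 in the first comparison (limma adjusted p = 0.034). B cells also express both genes, and B-cell markers were also called lower, as given below. The part of B cells in the Syk and Plcg2 differences was not tested. The adaptor Lat was the most abundant of the list, at 106 to 167.5 RPKM, and did not pass. The kinase Lyn, which starts the signal, was at 43.7 to 75.3 RPKM and did not pass.

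Among the receptor chains for IL-33, IL-3, GM-CSF, KIT ligand, TSLP and other cytokines, 4 of 10 differences were positive for CpG-scrODN minus PBS. Without the pair that stood apart, 8 of 10 were. Limma called 1 of the 10. It was Csf2ra, the alpha chain for GM-CSF, which fell by 0.51 for CpG-scrODN against PBS (limma adjusted p = 0.0384). Limma called 0 of 9 histamine and lipid mediator genes in all 3 comparisons, with 1, 0 and 0 at an unadjusted p under 0.05. All 9 differences were positive against PBS in both comparisons, with medians of 0.61 and 0.37 against -0.05 and -0.01 for all genes. Without the pair that stood apart, 7 and 9 of them were positive, with medians of 0.29 and 0.4. For CpG-STAT3dODN minus CpG-scrODN all 9 were negative with the pair (median -0.18) and all 9 positive without it (median 0.06). The most abundant, Alox5ap, which presents arachidonic acid to Alox5, had a difference of 0.85 for CpG-scrODN minus PBS (limma adjusted p = 0.422). The summed level of the list was 215 to 707 RPKM in the PBS-labelled libraries, 655 to 722 in the CpG-scrODN-labelled ones and 286 to 894 in the CpG-STAT3dODN-labelled ones, with replicate 4 lowest in the first and last. Among 21 transcription factors of the lineage and partners of GATA2, limma called 1 in each comparison against PBS, Irf8, a factor of monocytes, dendritic cells and B cells. Irf8 fell by 2.53 and 2.02 (limma adjusted p = 0.000265 and 0.00191). Gata1 was the most abundant. Mitf, which mast cells need, was at 1.06 to 4.32 RPKM and did not pass.

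Markers of some other cells were also called lower against PBS. All 14 B-cell genes tested were called lower for CpG-scrODN against PBS and 12 of 14 for CpG-STAT3dODN against PBS. Some passed the filter largely through the PBS-labelled libraries. Fcrla, for example, was at 9.07 to 50.3 RPKM there and at 0.401 to 0.724 in the CpG-scrODN-labelled ones. Ms4a1, which encodes CD20, fell by 3.84 and 3.04 (limma adjusted p = 1.27e-05 and 0.000152). Their summed level was 214 to 798 RPKM in the PBS-labelled libraries, 11.9 to 30.7 in the CpG-scrODN-labelled ones and 27.5 to 124 in the CpG-STAT3dODN-labelled ones, with no gene of the list at 0 in any library. The order of the groups was the same as for Mcpt8, and with the list's mean log2 level as a covariate in limma the differences of Mcpt8 and Prss34 became 1.54 and 0.82, neither called. That mean was 3.51 to 4.74 in the PBS-labelled and 0.79 to 1.42 in the CpG-scrODN-labelled libraries, so B-cell level and group cannot be told apart in that fit. Of 12 neutrophil genes, limma called 3 lower for CpG-scrODN against PBS, Mpo (-2.08), Prtn3 (-2.05) and Elane (-1.93), and 0 for CpG-STAT3dODN against PBS, where 3 had an unadjusted p under 0.05. Summed neutrophil levels were 2004 to 5535 RPKM under the PBS label, 609 to 2303 under CpG-scrODN and 2001 to 4437 under CpG-STAT3dODN. Under the PBS label that sum was lowest in replicate 4, where Mcpt8 and Prss34 were highest. Plasmacytoid dendritic genes were called lower for 3 and 2 of 5, with sums of 138 to 196, 65.1 to 84.9 and 74.0 to 88.3 RPKM in the same order. Those called were Ly6d and Spib in both comparisons and Tcf4 in the first. Tcf4 was at 1.53 to 4.47 RPKM in the PBS-labelled libraries and below 1 in every CpG-scrODN-labelled one. Other genes of the list did not move with them. Bst2 was at 55.6 to 75.5 RPKM in all libraries and was not called. Siglech and Ccr9 were at 0.212 and 0.310 RPKM or less and failed the filter. Which cells the Ly6d, Spib and Tcf4 values came from was not tested.

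Cytotoxic lymphocyte genes bear on Gzmb, which those cells also make. Of 17 in the list, 4 passed the filter and 2 were called lower in both comparisons against PBS, Ccl5 (-1.69 and -1.25) and Cd3g (-1.3 and -1.11). Cd3g passed the filter only through the PBS-labelled libraries, since the other 8 held 0.306 to 0.999 RPKM. The list's sum was 40.5 to 66.0 RPKM in the PBS-labelled libraries, 16.7 to 32.3 in the CpG-scrODN-labelled ones and 18.6 to 28.3 in the CpG-STAT3dODN-labelled ones. Among its defining genes, the NK cell genes Ncr1 and Klrb1c were at 0.324 and 0.282 RPKM or less. In PBS-labelled replicate 4, where Gzmb was at 6.12 RPKM, the T-cell genes Cd8b1 and Cd8a were at 3.27 and 2.98, Gzmk at 2.88, Klrd1 at 2.74 and perforin, Prf1, at 1.60, each the highest of the 12 libraries. Not all genes of the list did so. Nkg7, the most abundant, was lowest of its group there, at 12.7 RPKM against 15.2 to 23.3. It was lowest of all 12 libraries in CpG-STAT3dODN-labelled replicate 4, at 4.61 RPKM, where Gzmb was the highest of its group. Gzma was highest in PBS-labelled replicate 2, at 2.06 RPKM. Prf1, Klrd1, Cd8b1 and Cd3e failed the filter, and their PBS-labelled ranges lay above those of both other groups. Those genes were chosen after their values were seen. Of all genes tested, 10% were lower without overlap for CpG-scrODN against PBS and 4.23% for CpG-STAT3dODN against PBS. The part of cytotoxic cells in the Gzmb values was not tested. The eosinophil list was called for 0 of 4 by limma, with 2, 0 and 0 at an unadjusted p under 0.05. Within it Siglecf, an inhibitory lectin, ran from 1.28 to 61.1 RPKM and stood at 4.65, 7.13, 37.8 and 1.28 in PBS-labelled replicates 1 to 4, the order of Cpa3 there. Prg2, the eosinophil granule major basic protein, which basophils and progenitors can also express, reached 22.7 RPKM and had a difference of -1.48 for CpG-scrODN minus PBS (limma adjusted p = 0.26). Ear2 reached 16.6 RPKM, while Epx and Ccr3 were at 1.88 and 0.344 or less. Of the ILC2 and regulatory T-cell list, which shares Il1rl1's known expression, only Gata3 passed the filter (3.11 to 7.77 RPKM) and was not called. Limma called 0 of 12 megakaryocyte, erythroid and stem progenitor genes, with 2, 0 and 0 at an unadjusted p under 0.05. Of 5 c-Kit leukaemia check genes tested, Ptprc and Mpo were called lower for CpG-scrODN against PBS and Ptprc for CpG-STAT3dODN against PBS. Of 15 immediate-early genes 0 and 1 (Nr4a1, -1.3) were called against PBS, with 3 at an unadjusted p under 0.05 in each. For CpG-STAT3dODN against CpG-scrODN limma called 0 genes of any list.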

How the data were processed

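Per the file headers and labels, the authors deposited RPKM for 24310 features in each of 12 libraries, 4 per labelled group. The submitters' processing notes name mm10, TopHat 1.3.1 and Partek 6.12.0713 without their roles, and the annotation is not given in the sources used here. Genes with at least 1 RPKM in at least 4 libraries were kept (10886, including 9 members). log2(RPKM + 1) was fitted with limma 3.58.1 in R 4.3.3, 1 model over all 12 libraries, with an intensity trend. Calls needed a two-sided Benjamini-Hochberg adjusted p under 0.05 within a comparison. The model was tested on simulated data with independent errors. That test does not cover the shared deviations of the pair that stood apart. Depth was estimated from 869 to 980 single-transcript genes. Only 65.6% to 68.8% of their low values were whole reads within 0.05, so no count test was run. No 2 libraries were identical. Named beside the members were, per gene list, up to 4 called genes with the largest difference or else the most abundant gene, and per member its 3 most alike genes. Fcer1g, Il1rap, Lyn, Mitf, Ncr1, Klrb1c, Epx, Ccr3, Prg2, Ear2, Prf1, Klrd1, Gzma, Gzmk, Cd8a, Cd8b1, Cd3e, Siglech, Ccr9 and others marked in the text were added after their values were seen. Members, lists and tests were chosen with earlier results of these data known. Symbols Ighm, Ly6g and Cd244a were not analysed here. Alternatives covered pseudocount, filter, scaling, samples, weights, a B-cell covariate, a replicate block and left-out libraries, the last also without all replicates 4, chosen after seeing the data.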

Additional observations from a re-analysis of the deposited data

Results flagged for a closer look

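Within a group of 4, a library was singled out where its gap to the nearest other was a larger share of the group's range on the log2(RPKM + 1) scale than Dixon's 95% critical value for 4 samples. Of 28 groups of a member tested, 6 were, and all 6 libraries were replicates 4. The critical value flags about 1 in 20 groups by chance where groups are independent. These are not, since the members share the same libraries and correlate, and no share over all genes was computed. The 6 flags are therefore not weighed against chance. Fcer1a was at 1312 RPKM in CpG-scrODN-labelled replicate 4 (others 763 to 803) and at 389 in CpG-STAT3dODN-labelled replicate 4 (others 874 to 1019). Hdc was at 252 RPKM in CpG-scrODN-labelled replicate 4 (others 155 to 162) and at 330.4 in CpG-STAT3dODN-labelled replicate 4 (others 145 to 158). Il1rl1 was at 229 RPKM in CpG-scrODN-labelled replicate 4 (others 147 to 148). Tpsb2 was at 0.0872 RPKM in PBS-labelled replicate 4, with the others listed at 0, so any value above 0 in 1 library would have been singled out.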

How the results depend on the processing

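Members called for CpG-scrODN against PBS, 2 as reported, numbered 1 with no filter, with quantile normalization, with only the 2 groups compared, without the pair of low Fos and without all replicates 4. They numbered 0 with the B-cell covariate and 6 with library weights. A filter of 5 RPKM also gave 0, but it kept only 6 members and left Mcpt8, Prss34 and Gzmb untested. For CpG-STAT3dODN against PBS, 0 as reported, they numbered 6 with library weights, 2 with the B-cell covariate, and 1 without all replicates 4 (Il1rl1). The replicate block also gave 1 there (Il1rl1, 0.59, limma adjusted p = 0.027). For CpG-scrODN against PBS it called Mcpt8 and Gzmb (-1.15, 0.0326) and lost Prss34 (0.057), so the count stayed at 2. Numbers were not taken as pairs, since no label gives them a meaning and same-numbered deviations correlated from -0.341 to 0.817, not all above 0.1. The replicates 4 did correlate, at 0.151, 0.193 and 0.817. All genes called for CpG-scrODN against PBS, 452 as reported, numbered 163 with the filter of 5 RPKM, 1812 with weights (730 higher, 1082 lower) and 0 with the covariate. For CpG-STAT3dODN against PBS, 202 as reported, they numbered 76, 1248 and 535 in the same order and 78 with only 2 groups. For CpG-STAT3dODN against CpG-scrODN, 0 as reported, they numbered 607 with weights and 1 with only 2 groups. Quantile normalization called 75 higher and 318 lower for CpG-scrODN against PBS, where the reported fit called 12 and 440. Leaving out 1 library gave 281 to 556 genes and 0 to 2 members for the first comparison, 96 to 218 and 0 for the second, and 0 for the third, with 281 without CpG-scrODN-labelled replicate 3 and, for the second, 96 without PBS-labelled replicate 1 and 121 without CpG-STAT3dODN-labelled replicate 2.

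The B-cell list mean separates the PBS-labelled libraries from the others, so the covariate and the group share most of their information. With it, CpG-scrODN minus PBS became -5.1 for Cpa3, -3.36 for Fcer1a, -2.78 for Ms4a2, 1.54 for Mcpt8, 0.82 for Prss34 and 0.45 for Gzmb. CpG-STAT3dODN minus PBS became -4.04, -2.65, -2.24, 1.37, 0.63 and 0.21 for the same genes. CpG-STAT3dODN minus CpG-scrODN became 1.06, 0.71, 0.54, -0.18, -0.19 and -0.25 for them, -0.49 for Hdc and -0.03 for Il1rl1.

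Without the pair of low Fos, CpG-STAT3dODN minus CpG-scrODN became 0.08 for Fcer1a, 0.01 for Ms4a2, -0.22 for Hdc and -0.08 for Gzmb, and without CpG-STAT3dODN-labelled replicate 4 alone it was the same to 2 decimals. Leaving out 1 library gave ranges of -0.38 to 0.08 for Fcer1a, -0.58 to 0.01 for Ms4a2, -0.03 to 0.43 for Gata2, -0.22 to 0.22 for Hdc and -0.08 to 0.28 for Gzmb, and -0.11 to 0.57 for Fcer1a in CpG-STAT3dODN minus PBS. Without all replicates 4 it became 0.14 for Cpa3, 0.27 for Fcer1a, 0.12 for Ms4a2, -0.06 for Hdc and -0.06 for Gzmb, and Fcer1a was -0.06 for CpG-scrODN minus PBS. With weights it became 0.23 for Fcer1a, 0.01 for Ms4a2, -0.05 for Hdc and -0.13 for Gzmb. The negative end for Fcer1a came without PBS-labelled replicate 4 and that for Gata2 without CpG-scrODN-labelled replicate 1, which also gave -0.01 for Hdc. The causes were not tested. Of 612 member differences under all alternatives, 541 kept direction and side of the threshold.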
